A study of Mus musculus with 12 samples.

Results

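The comparison described here is the change of the ratio of immunoprecipitated to input RNA, gene by gene, after knockdown of Larp1 in sensory neurons cultured from adult mouse dorsal root ganglia. Of 15391 genes in the count table, 2253 had at least 100 counts summed over the 6 immunoprecipitate columns and at least 50 over the 6 input columns, and these are the genes studied. All groups carried the same genotype, RPL22HA+/+;Advillin-Cre+, and all mice had been preconditioned by injury of the sciatic nerve before the neurons were cultured. An adeno-associated virus delivered a control or a hairpin RNA against Larp1 (AAV-shLarp1), and for each virus both the immunoprecipitate (IP) and the input were sequenced, with 3 columns in each of the 4 groups. The control virus is titled AAV-shControl for input and AAV-Control for IP, and both were read as the same control. Ages were not given. The labels name cultured neurons as the RNA source, whereas the extraction text speaks of fresh ganglia.

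RiboTag is an HA-tagged version of the ribosomal protein Rpl22 that a Cre recombinase switches on, here under the Advillin promoter, which is active in sensory neurons. An antibody against HA then recovers ribosomes of those neurons with the mRNA bound to them, while the input holds RNA of every cell in the preparation. Larp1 holds the cap and the terminal oligopyrimidine (TOP) tract with which the mRNAs of ribosomal proteins and many translation factors begin, and acts downstream of the growth kinase complex mTORC1. A change of the IP-to-input ratio can come from either fraction, so each change below is given with its IP part and its input part. In bulk samples, fewer cells of a type and less RNA per cell cannot be told apart.

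Each IP column held 3126591 to 3177552 counts, and each input column 564095 to 760140. The standard deviation of the totals within a group was below the square root of their mean in every group, and 6.98% to 7.62% of genes with 30 or more counts differed between columns of a group at a chi-square p under 0.05. The columns of a group were therefore summed and counted as 1 sample. No p-value between the viruses is given, and each interval is a 95% interval for counting error only. Whether the columns of the 2 viruses overlap likewise speaks for counting error only. Values are log2 ratios of summed counts after TMM scaling, a method that sets the scale by the bulk of the genes, which here made the shLarp1 input 1.15 times and the shLarp1 IP 1.11 times as deep as their controls (1.35 and 1.02 times in total counts). The rule for calling a gene higher or lower was an interval wholly past 1.5-fold. Pan-neuronal marker genes, summed, had a log2 IP-to-input ratio of 1.34 with the control virus and 2.08 with shLarp1, and of 1.84 and 2.11 without Uchl1. The median change of the 8 measured pan-neuronal genes was 0.23, with 5 above 0 and 1 called. Markers of Schwann cells and satellite glia, summed, stood at -1.28 and -1.65.

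Larp1 itself was read at 147, 141 and 154 counts in the control IP columns and at 55, 49 and 45 in the shLarp1 IP columns, which did not overlap. The IP change was -1.72 (-1.99 to -1.45). Its input counts were 5, 7 and 6 against 3, 3 and 2, too few for the input minimum, so Larp1 is not among the 2253 genes, and its ratio changed by -0.40 with an interval of -1.60 to 0.80. Rpl22, the tagged protein's gene, had counts of 2075, 2040 and 2022 in control IP, 2029, 2029 and 1981 in shLarp1 IP, 288, 275 and 288 in control input and 275, 277 and 301 in shLarp1 input. Its ratio changed by 0.02 (-0.13 to 0.16).

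The genes split by how well they were represented in the IP. Of the 2253, 371 (16.5% of all tested) had a lower ratio after Larp1 knockdown and 61 (2.71%) a higher one, 432 or 19.2% in all. Scaled by total counts, the split was 117 lower and 244 higher. Genes with a mean log2 ratio under -2 over both viruses, called low-ratio genes here, numbered 615 and supplied 332 of the 371 lower calls (54% of that class) and 4 of the higher calls (0.65%). Among the other 1638 genes, 57 (3.48%) were higher and 39 (2.38%) lower. The median change was -0.92 in the low-ratio genes, with quartiles of -1.11 and -0.64, and 0.18 in the others, with quartiles of -0.13 and 0.50. The 2 classes were thus 1.10 apart on the log2 scale, a distance that no scaling of the groups can alter. The ratio over both viruses shares its counts with the change, so this relation is a description.

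**Figure D1:**
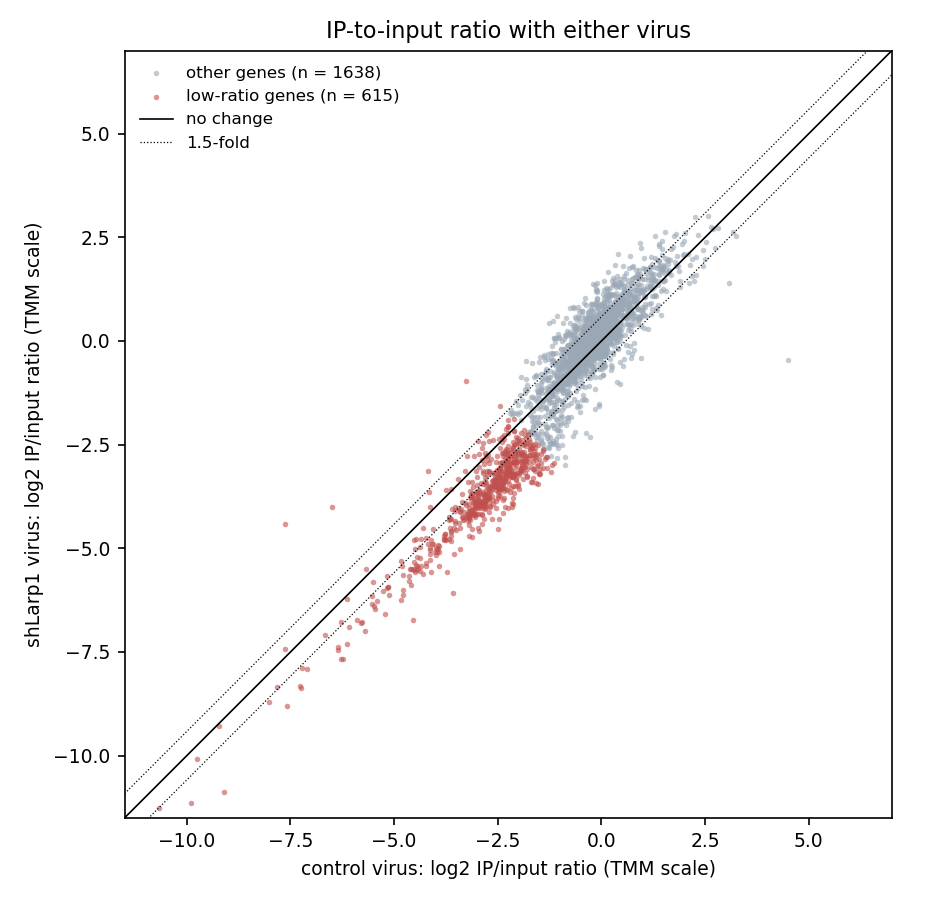
Each point is 1 of the 2253 genes, with its log2 IP-to-input ratio under the control virus on the horizontal axis and under shLarp1 on the vertical axis, both after TMM scaling. Low-ratio genes (n = 615, red) lie mostly under the line of no change, with a median change of -0.92, and the other 1638 genes (grey) scatter around a median change of 0.18.

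Both fractions moved in the low-ratio genes. Their median IP change was -0.48 and their median input change 0.43. In input these genes held 55.6% of the counts with the control virus and 64.5% with shLarp1, and in IP 10.8% and 8.57%. Of the 274 low-ratio genes with at least 1000 input counts, 212 were lower and 2 higher, with a median change of -0.97 and quartiles of -1.07 and -0.80. Of the 262 other genes with as many input counts, 9 were higher and 6 lower. Their median change was 0.02 and their median input change -0.03, beside 0.18 and -0.18 in all 1638 genes outside the class. In the low-ratio genes the change was a fall. The fall was of similar size throughout the low-ratio range. Its median was -0.85 for mean ratios of -3 to -2, -0.96 for -4 to -3, -1.0 for -5 to -4 and -0.88 under -5. Between -2 and -1 it was -0.29, from -1 to 0 it was 0.13, and from 0 to 1 it was 0.34.

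**Figure D2:**
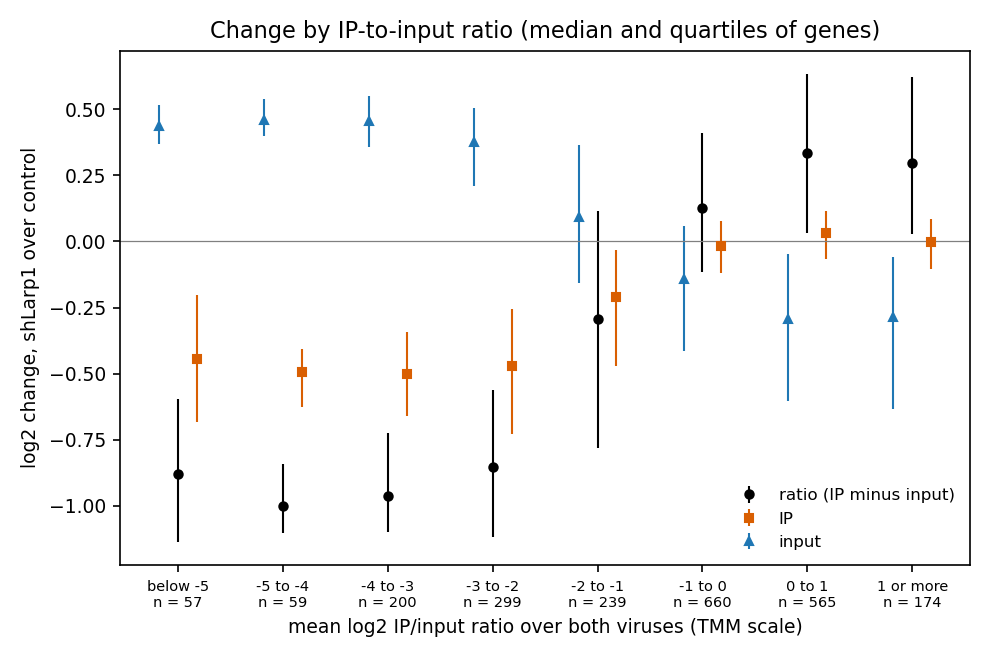
Medians and quartiles of the log2 change, shLarp1 over control, in bins of the mean log2 IP-to-input ratio, for the ratio (black circles), the IP (orange squares) and the input (blue triangles), with the number of genes in each bin under the axis. In the 4 bins under -2 the IP median lies near -0.5 and the input median between 0.38 and 0.46, whereas above 0 the IP median lies near 0 and the input median near -0.29.

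Several abundant low-ratio genes shared nearly the same change. St13, a co-chaperone that works with Hsp70, had 3334, 3133 and 3136 counts in control IP and 2603, 2638 and 2587 in shLarp1 IP. Its input counts were 4055, 4037 and 4108 against 6874, 6763 and 6888. The IP columns were lower and the input columns higher with shLarp1, without overlap, and the ratio changed by -1.0 (-1.05 to -0.95). Rpn2, a subunit of the oligosaccharyltransferase of the endoplasmic reticulum, had IP counts of 3365, 3453 and 3472 against 2562, 2586 and 2707, and input counts of 2540, 2459 and 2465 against 3963, 3949 and 3912. Its ratio changed by -1.01 (-1.07 to -0.95), and its interval overlapped that of St13. Mrpl13, of the mitochondrial ribosome, changed by -1.04, Snrnp70, of the U1 splicing particle, by -1.16, and the ubiquitin-conjugating enzyme Ube2d3 by -0.92. Wdr12, which acts in ribosome assembly, was the most input-heavy of the named genes: 2854, 2739 and 2827 control input counts stood against 55, 61 and 50 in control IP. With shLarp1 the input counts were 4796, 4669 and 4767 and the IP counts 27, 23 and 29, a change of -1.78 (-2.17 to -1.39).

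The largest lower values rested on fewer counts. Tirap, an adaptor of Toll-like receptors, had 63, 65 and 45 IP counts with the control virus and 17, 7 and 22 with shLarp1, while input moved from 60, 71 and 61 to 96, 106 and 96. Its ratio was 5.61-fold lower (log2 -2.49, -3.02 to -1.95), mostly through the IP (-2.05). Pigl, of glycosylphosphatidylinositol anchor synthesis, changed by -2.19, Mcm10, a DNA replication factor, by -2.03, and the transcription factor Grhl2 by -1.85. Tomm6, a small subunit of the mitochondrial import channel, had the lowest value of all, -4.95 (-6.78 to -3.12). It came from shLarp1 input counts of 7, 66 and 0 against 0, 2 and 0 in control input, so columns of 1 group disagreed and 1 column carried the change. Columns of a group differed at a chi-square p under 0.001 in 62 of the 2253 genes, and in 21 of the 432 called.

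Of the 61 genes called higher, 59 had the larger part of the change in input. Their median IP change was 0.14 and their median input change -1.01. Taken alone, the input was called lower in 34 of them and the IP higher in 3. Over all 2253 genes the input was lower in 43 (1.91%) and higher in 6 (0.266%), and the IP was lower in 106 (4.7%) and higher in 5 (0.222%). In the 371 genes called lower the parts were more even: 241 had the larger part in IP and 130 in input, with medians of -0.61 and 0.49, and IP and input moved in opposite directions in 368.

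**Figure D3:**
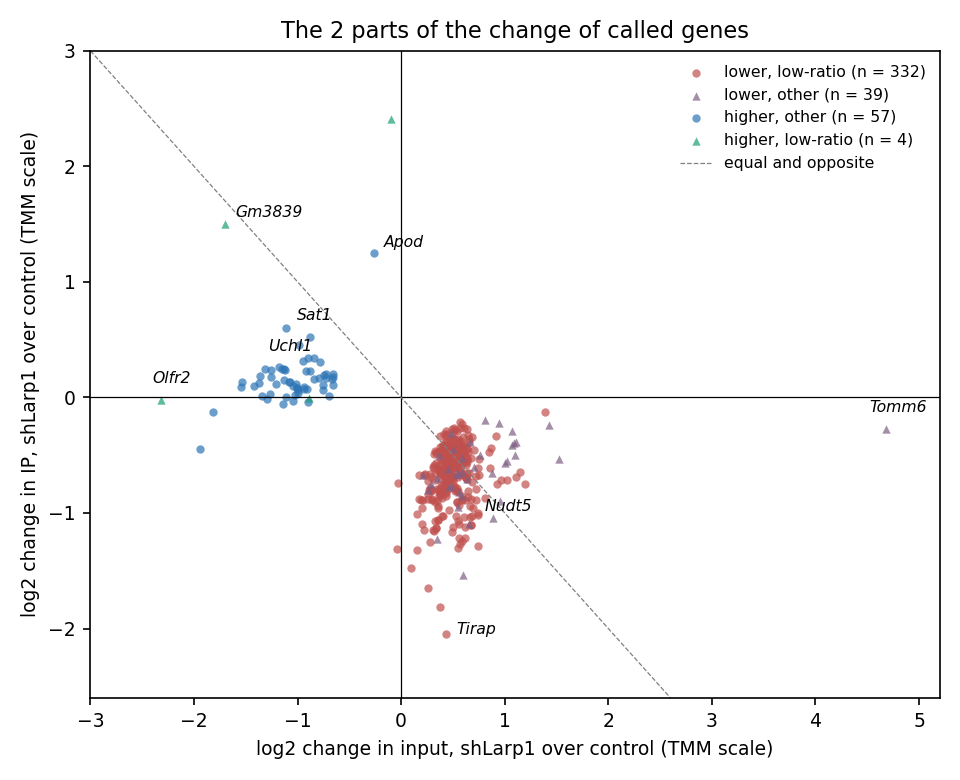
Each point is 1 of the 432 called genes, with its log2 change in input on the horizontal axis and in IP on the vertical axis. The genes called higher gather at a median input change of -1.01 with little change in IP, Apod (IP change 1.25) lies near the vertical axis, and the genes called lower have an IP median of -0.61 and an input median of 0.49.

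Uchl1, a ubiquitin hydrolase abundant in neurons, showed the typical form of a higher ratio. Its IP counts were 10276, 10199 and 10327 with the control virus and 13512, 13402 and 13433 with shLarp1. Its input counts were 609, 562 and 601 against 314, 317 and 304. Neither fraction overlapped, and the ratio was 2.56-fold higher (log2 1.36, 1.24 to 1.47), with -1.12 of it in input and 0.24 in IP. Anxa2, a membrane-binding annexin, had 3303, 3223 and 3193 against 3639, 3576 and 3655 IP counts, which is no change after TMM scaling (0.01). Its input counts were 345, 331 and 313 against 148, 146 and 152. Its ratio was likewise 2.56-fold higher (1.35, 1.19 to 1.52). Rhoa, the small GTPase that controls actin, changed by 1.49 (1.00 to 1.99) on input counts of 39, 31 and 39 against 19, 16 and 17. Hprt, of purine salvage, changed by 1.56, Akr1a1, an aldehyde reductase, by 1.49, and Atp6v0c, of the vacuolar proton pump, by 1.21.

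Apod differed from these. This lipocalin, a secreted carrier of lipids, had 378, 387 and 407 IP counts with the control virus and 1025, 1028 and 1040 with shLarp1. Its input counts of 32, 29 and 25 against 26, 31 and 25 overlapped. The ratio was 2.85-fold higher (1.51, 1.07 to 1.96), with 1.25 (1.15 to 1.34) in IP and -0.27 (-0.70 to 0.17) in input. Sat1, which acetylates polyamines, was intermediate: its change of 1.70 (1.20 to 2.21) held 0.60 in IP and -1.11 in input. Inpp5f, a phosphoinositide phosphatase named here after its values were seen, had 21, 36 and 37 IP counts against 66, 70 and 72 at input counts of 11, 13 and 9 against 10, 11 and 15, and its ratio change of 1.06 (0.30 to 1.83) was not called.

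**Figure D4:**
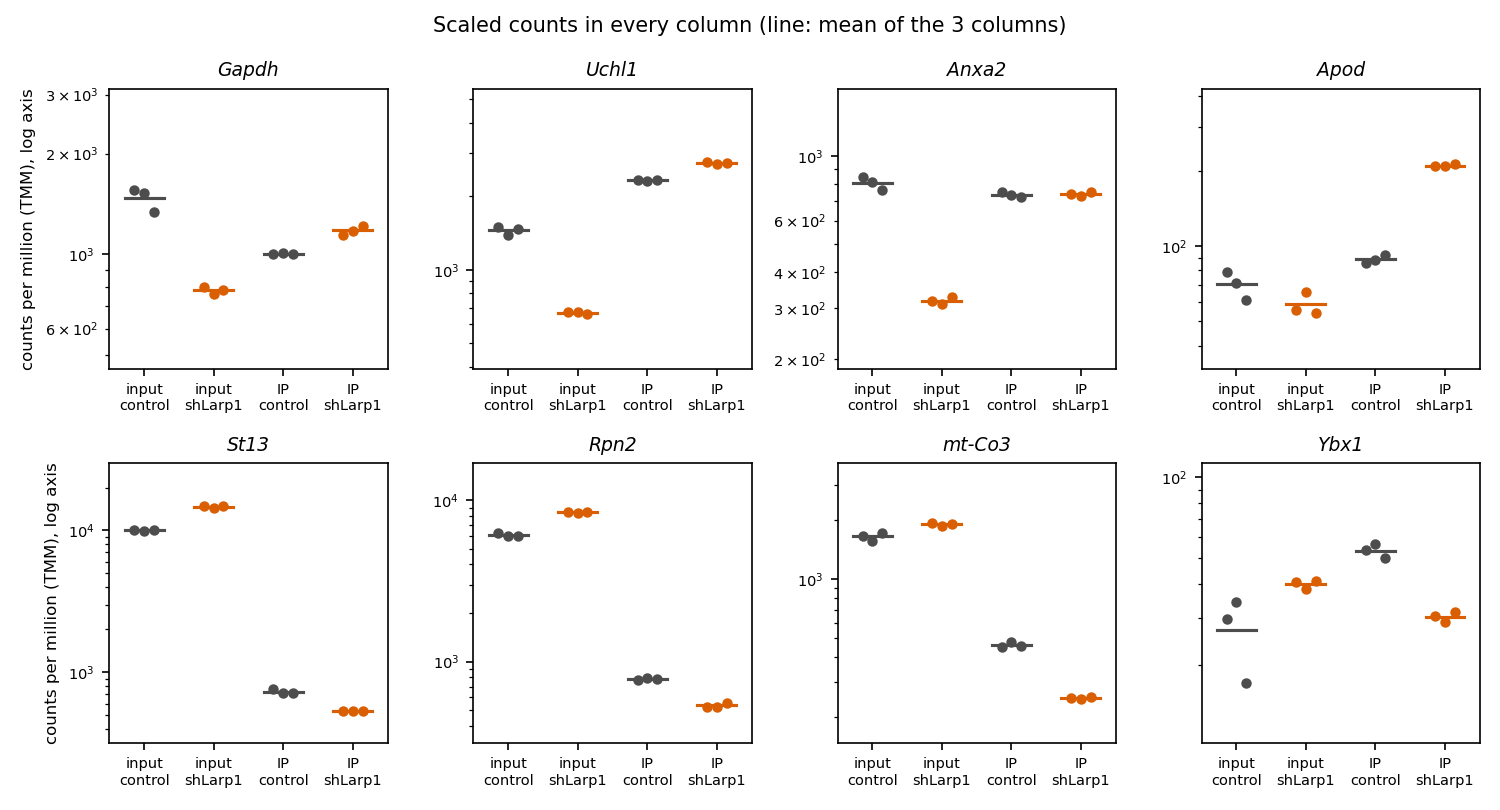
TMM-scaled counts in each of the 12 columns, on log axes that differ between panels; points are columns and lines are the means of 3. For Gapdh, Uchl1 and Anxa2 the shLarp1 input columns lie under the control input columns, for Apod the shLarp1 IP columns lie above the control IP columns, and for St13, Rpn2 and mt-Co3 the IP columns lie lower and the input columns higher with shLarp1.

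Glycolysis was the list with the highest median change, 0.87 over 13 genes, beside -0.02 over all genes and 0.18 outside the low-ratio class. It stood between 0.67 and 1.23 under the scalings tried. Aldoa, Gapdh and Tpi1 were called higher and Slc2a3 lower. Gapdh, the dehydrogenase of the pathway, had input counts of 633, 621 and 550 with the control virus and 373, 358 and 363 with shLarp1, and IP counts of 4420, 4428 and 4440 against 5606, 5772 and 5950. Its ratio changed by 1.15 (1.04 to 1.26). Tpi1, triosephosphate isomerase, changed by 1.29 (0.89 to 1.69) on input counts of 60, 51 and 53 against 22, 23 and 33, with IP at 0.03. Aldolase, Aldoa, changed by 1.06 (0.80 to 1.31). Hk1 at 0.94, Ldha at 0.89, Ldhb at 0.88 and Eno1 at 0.87 were not called, and Pgk1 stood at 0.04 and Pgam1 at -0.03. The neuronal glucose transporter Slc2a3 was a low-ratio gene and changed by -1.40 (-1.64 to -1.16).

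The 28 proteasome subunits had a median of 0.45, and 26 of them were above 0. Over all genes 49.2% were above 0. Outside the low-ratio class, where all 28 subunits lay, 65.6% were above 0, with a median of 0.18. Psmc6, a regulatory ATPase, changed by 1.68 (0.84 to 2.52) on input counts of 16, 19 and 12 against 5, 6 and 4, with IP at -0.13. Psmc1 (1.08), Psma1 (1.04) and Psma5 (0.94) were also called, and Psmd11 was lowest at -0.46. Tubulins and their cofactors had a median of 0.48, with 10 of 11 above 0 and none called. Tubb3, the neuronal beta-tubulin, stood at 0.72 (0.43 to 1.00) and Tuba1a at 0.32 (0.18 to 0.47). Rab GTPases and their partners, which direct vesicle traffic, had a median of 0.65 over 8 genes, from 0.25 in Rab11b to 1.08 in Rab3a, again with none called. In each of these lists the median IP change lay between -0.08 and 0.12, and the median input change between -0.63 and -0.31.

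Effectors of axon regeneration had a median of 0.44, and all 13 were above 0, beside 65.6% of genes outside the low-ratio class. Anxa2 and the microtubule regulator Stmn3 (0.76, 0.60 to 0.92) were called. Gap43, a growth cone protein, stood at 0.64 (0.26 to 1.03) and Sprr1a, induced by nerve injury, at 0.44 (-0.09 to 0.97), and neither was called. Of 2 measured injury transcription factors, Jun stood at 0.61 and was not called. Stat3 went the other way, at -1.05 (-1.43 to -0.67). It had IP counts of 273, 260 and 301 against 225, 254 and 230 and input counts of 26, 44 and 29 against 61, 54 and 65. The stress kinase Mapk8 was lower too, by -1.57 (-2.37 to -0.77), on IP counts of 54, 66 and 64 against 38, 25 and 24. Its input counts of 7, 7 and 12 against 12, 13 and 13 were few. Of the 6 measured genes of JNK signalling and axon degeneration, its list, 3 were above 0 and 3 below. The calls of Stat3 and Mapk8 did not hold in every scaling. Sensory neuropeptides had a median of 0.26 over 9 genes with none called, from Nmb at -0.24 to Calca, which encodes CGRP, at 0.63 (0.38 to 0.88). Of the 3 neurofilament and peripherin genes none was called, and they ran from Nefl at -0.54 (-0.98 to -0.10) through Nefm at -0.10 to Prph at 0.12.

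**Figure D5:**
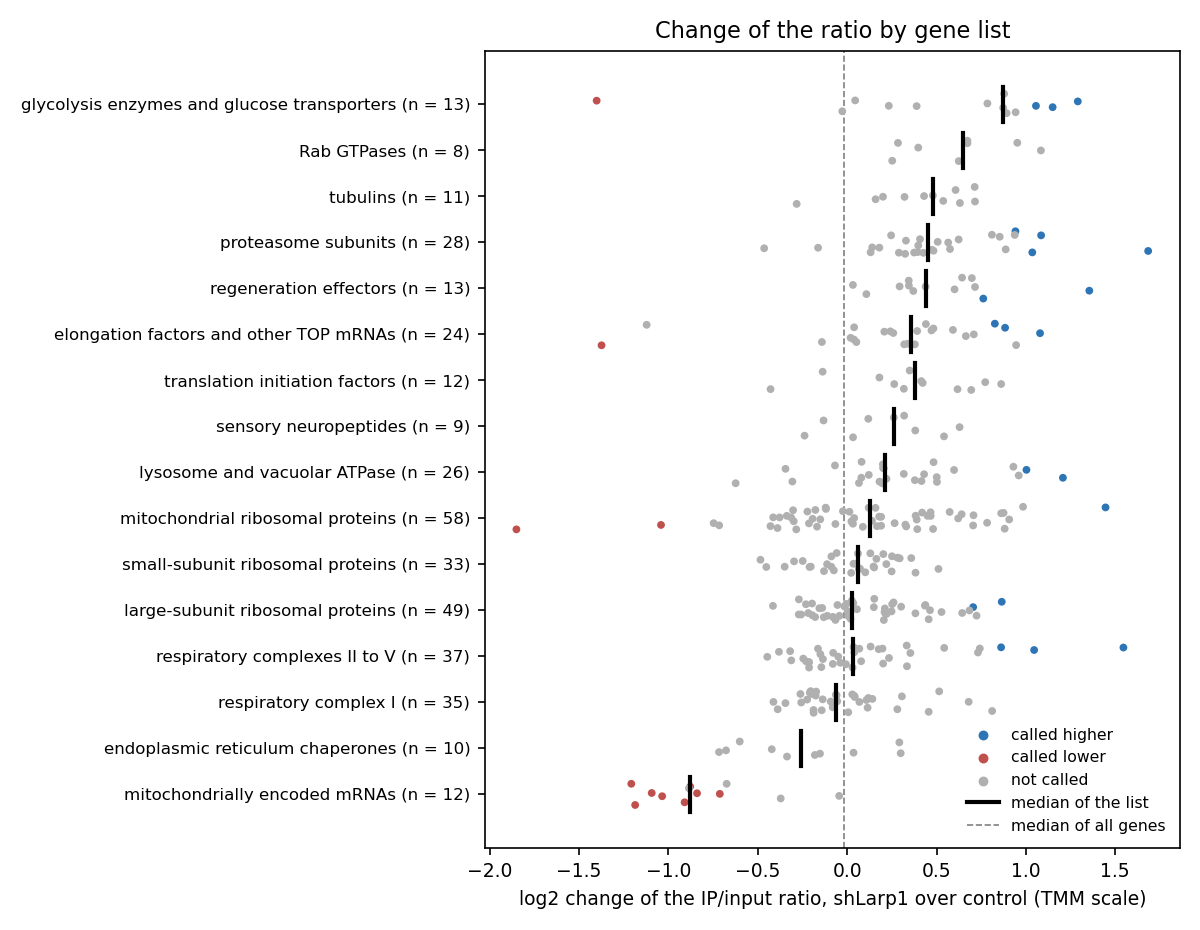
Log2 change of the IP-to-input ratio of each measured member of 16 gene lists, in blue where called higher, red where called lower and grey where not called, with the median of each list as a black bar and the median of all 2253 genes (-0.02) dashed. Glycolysis has the highest median (0.87) and mitochondrially encoded mRNAs the lowest (-0.88), while both ribosomal protein lists lie near 0.

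Ribosomal protein mRNAs are the best known TOP mRNAs and targets of Larp1. The 49 large-subunit genes had a median change of 0.03, with 2 called higher, and the 33 small-subunit genes 0.06, with none called. The sign of both medians depended on the scaling (-0.18 to 0.39 and -0.14 to 0.42). On the TMM scale, median IP changes were -0.14 and -0.17, and median input changes -0.19 and -0.23. These parts shift with the scaling too. Their depth makes single values precise: Rps19 had IP counts of 17410, 17447 and 17532 against 14883, 15141 and 15042 and input counts of 2734, 2730 and 2740 against 3391, 3391 and 3410, and its change of -0.49 (-0.53 to -0.44) lay clear of 0 beyond counting error. Rpl10 stood at the other end, at 0.86 (0.75 to 0.98), with IP counts of 3118, 3014 and 3131 against 3358, 3392 and 3276 and input counts of 629, 687 and 610 against 420, 380 and 381. Rpl6 was also called, at 0.70 (0.59 to 0.82), and Rpl3 stood at 0.72 (0.52 to 0.93).

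The spread among ribosomal proteins followed the number in their names, which runs roughly from large to small proteins. Neither this ordering nor its cuts at 18 and 14 were among the comparisons set out beforehand. Of the large-subunit genes numbered up to 18, 16 of 19 were above 0, with a median of 0.21, and of those above 18, 11 of 26, with a median of -0.03. Small-subunit genes up to 14 had 13 of 14 above 0 (median 0.16), and those above 14 had 6 of 17 (median -0.09). Spearman's rho between number and change was -0.67 over 45 genes and -0.51 over 31, both across genes that share the same 4 samples. The difference lay in input, where the medians were -0.32 and -0.08 for the large subunit, against -0.12 and -0.15 in IP. Over the 1638 genes outside the low-ratio class, the median change rose with the span of the gene in RefSeq, introns included, from -0.00 under 1500 bases to 0.27 between 10000 and 20000, and was -0.08 above 50000.

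The TOP tract itself is shown for 8 of the 14 ribosomal protein genes whose annotated first base begins a run of C and T, from 10 bases before the annotated start to 20 after it, on the sense strand (RefSeq, GRCm38.p6). Capitals mark the run of C and T that begins at the annotated first base.
Rps18 (chr17:33955646-33955675, minus strand): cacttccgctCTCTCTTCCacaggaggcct
Rpl35 (chr2:39005112-39005141, minus strand): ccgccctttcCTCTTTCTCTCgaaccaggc
Rpl38 (chr11:114668570-114668599, plus strand): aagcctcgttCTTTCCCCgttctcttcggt
Rps6 (chr4:86857348-86857377, minus strand): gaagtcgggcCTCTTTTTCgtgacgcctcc
Rps27 (chr3:90213629-90213658, minus strand): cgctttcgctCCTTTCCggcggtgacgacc
Rps10 (chr17:27635225-27635254, minus strand): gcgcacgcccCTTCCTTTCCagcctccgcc
Rpl28 (chr7:4792955-4792984, plus strand): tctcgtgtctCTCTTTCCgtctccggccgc
Rplp2 (chr7:141447641-141447670, plus strand): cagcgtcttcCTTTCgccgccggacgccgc
The changes of these genes were -0.30 for Rps18, -0.27 for Rpl35, -0.14 for Rpl38, 0.10 for Rps6, 0.25 for Rps10, 0.29 for Rps27, 0.38 for Rpl28 and 0.68 for Rplp2, whose columns within a group differed. Of the 14 genes, the 4 with runs of up to 7 bases were all above 0, and of the 10 with runs of 8 or more, 4 were above and 6 below, a split noticed after the values were seen.

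A TOP-like start, taken as a C followed by at least 4 C or T within 5 bases of the annotated start on the sense strand, was found in 426 of the 1827 genes with a RefSeq start sequence. It was present in 49.2% of 61 ribosomal protein genes and in 23.3% of all 1827. A gene counted where any of its annotated starts matched. Counted per start instead, 18.3% of 32851 RefSeq starts had it, which is not comparable with a share of genes. Genes with it had a median change of 0.04 and those without it -0.03. Outside the low-ratio class the medians were 0.17 (n = 333) and 0.18 (n = 1016), and 11 and 37 genes were called higher. Among ribosomal proteins they were 0.02 with and 0.05 without. Ribosomal protein mRNAs are known TOP mRNAs, so a gene without a match may still carry a tract. Tpt1, Slc25a5, Btf3 and Ybx1, from the list of elongation factors and other TOP mRNAs, had no match either. The medians therefore cannot show whether a TOP tract goes with the change. A match is a description of the letters, and annotated starts can be off by some bases.

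Other translation genes stood above the ribosomal proteins. The 24 elongation factors and other TOP mRNAs had a median of 0.36, with 21 above 0, beside 65.6% of genes outside the low-ratio class. The 12 initiation factors had a median of 0.38, with none called. Tpt1, a TOP mRNA for the tumour protein TCTP, was higher, and sat at the limit of the low-ratio class, with log2 ratios of -2.44 and -1.56: input counts of 876, 876 and 838 stood against 545, 524 and 535, IP was at -0.01, and the ratio changed by 0.88 (0.78 to 0.99). Slc25a5, the adenine nucleotide carrier, changed by 1.08 and Btf3, of the nascent-chain complex, by 0.83. Ybx1, a Y-box protein that packages mRNA, was lower by -1.37 (-2.01 to -0.73). Its IP counts fell from 237, 248 and 221 to 149, 142 and 154, and its input counts were 12, 14 and 7 against 19, 18 and 19. Pabpc1, also a TOP mRNA, encodes the main poly(A)-binding protein of the cytoplasm; named after its values were seen, it had 308, 328 and 313 against 158, 149 and 147 IP counts. Its IP change of -1.22 (-1.38 to -1.05) was called lower, but at input counts of 23, 13 and 17 against 25, 14 and 18 its ratio change of -1.12 (-1.68 to -0.56) narrowly missed the rule. Of the mTORC1 pathway 7 genes were measured and none called, from Tbc1d7 at -0.58 to Rheb, the GTPase that activates the complex, at 0.98 (0.35 to 1.60).

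Mitochondrially encoded mRNAs, which are translated inside mitochondria and not by tagged ribosomes, had the lowest median among lists of more than 5 genes, -0.88 over 12 genes (-1.08 to -0.52 under the scalings tried). All 12 were under 0 in the TMM scale and 8 were called lower. The share called lower was 16.5% over all genes and 54% in the low-ratio class, to which 9 of the 12 belonged. mt-Co3 had IP counts of 1989, 2094 and 2021 against 1225, 1212 and 1232 and input counts of 673, 633 and 703 against 900, 874 and 885, a change of -1.09 (-1.20 to -0.99). mt-Atp6 changed by -1.19, mt-Nd2 by -1.21 and mt-Co2 by -1.03, while mt-Nd6 stood at -0.04 (-0.44 to 0.35). Median changes were -0.63 in IP and 0.25 in input. Nuclear genes of the same complexes lay near 0: the median was -0.06 over 35 genes of respiratory complex I, with none called, and 0.03 over 37 genes of complexes II to V, with Sdhd, Atp5f1 and Atp5c1 called higher. Both medians changed sign with the scaling. The 58 mitochondrial ribosomal proteins had a median of 0.13, with Mrpl4 higher (1.45) and Mrpl1 (-1.85) and Mrpl13 lower.

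Proteins that handle RNA were represented by few genes. Of 24 listed stress granule and axonal transport proteins 4 were measured, and Tia1 (-1.66, -2.29 to -1.02) and Elavl1 (-0.98, -1.20 to -0.75) were lower, both low-ratio genes. Of 31 decay factors 3 were measured. The exonuclease Xrn1 was lower by -1.40 (-1.97 to -0.82) and the deadenylase subunit Pan3 by -0.95, both low-ratio genes, while Lsm1 stood at 0.68. The share called lower was 16.5% over all genes and 54% in the low-ratio class. To that class belonged 3 of the 4 stress granule and axonal transport genes and 2 of the 3 decay genes. Cholesterol synthesis divided in the same way: the low-ratio genes Tm7sf2 (-0.90), Msmo1 (-0.81) and Srebf2 (-0.76), the last a regulator of the pathway, were lower, and Fdps (1.01) and Pmvk (1.26) higher. Endoplasmic reticulum chaperones had a median of -0.26 over 10 genes with none called, and 6 measured ATF4 targets 0.67 with none called.

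Of 8 measured Schwann cell and satellite glia genes, Mag, a myelin glycoprotein and low-ratio gene, was lower (-1.17, -1.52 to -0.81), and the median was -0.36, with a sign that turned under total-count scaling (0.01). Of 10 measured fibroblast and matrix genes, with a median of -0.10, Fn1, which encodes fibronectin, was lower (-0.89, -1.11 to -0.67). None of 3 macrophage genes was called, and neither were Acta2 (0.36) and Tagln (0.47), the only measured markers of endothelial and mural cells. The summed log2 ratio was -0.98 with the control virus and -0.39 with shLarp1 for macrophage markers, -0.87 and -0.43 for endothelial and mural markers, and -0.98 and -1.09 for fibroblast markers. The part of these cells in the changes of other genes was not tested.

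The count of higher genes depended on the columns kept and on scaling. Leaving out any 1 of the 6 input columns left 24 to 34 genes called higher and 426 to 444 lower. Leaving out the same-numbered column of every group left 44 to 49 higher and 320 to 329 lower. TMM factors were computed anew each time, and the part of input depth in these counts was not tested. With DESeq2 size factors 24 genes were called higher. Relative to TMM, total-count scaling added 0.36 to every change of the ratio and DESeq2 size factors took off 0.20. The IP and input parts are given on the TMM scale only and also shift with the scaling. Under every scaling the list medians stayed above 0 for glycolysis, proteasome, tubulins, Rab GTPases, regeneration effectors, neuropeptides, ATF4 targets and both translation factor lists, and those of endoplasmic reticulum chaperones, cholesterol synthesis, neurofilaments and mitochondrial ribosomal proteins changed sign. Tests that treat the 12 columns as replicates called more genes at an adjusted p under 0.05: edgeR's quasi-likelihood test called 283 higher (12.6%) and 593 lower (26.3%), 280 (12.4%) and 590 (26.2%) with a replicate block, and DESeq2 called 137 higher (6.08%) and 753 lower (33.4%). In every scaling tried, 20 of the 38 named higher genes kept their call, among them Gapdh, Tpi1, Aldoa, Uchl1, Anxa2, Rhoa, Psmc6, Sdhd and Apod, and 26 of the 46 named lower genes, among them St13, Rpn2, Wdr12, Tirap, mt-Co3, mt-Atp6 and Slc2a3. The calls of Rpl6, Stmn3, Atp5c1, Psma1, Psma5, Psmc1, Fdps, Pmvk, Btf3 and Mrpl4 were lost in 10 or more of 31 settings. The limits on counts decided which genes entered: 50 genes had 50 to 52 input counts, with a median change of 0.12, and 60 genes with 47 to 49 stayed out, also with 0.12.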

How the data were processed

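RNA from IP and input of 4 groups was sequenced with a nanopore cDNA-PCR kit without molecular identifiers, per the labels' protocols. The deposited table holds whole-number estimated counts per gene. Per the submitters' processing notes, the tools were minimap2 and Salmon and the builds mm39 and GRCm39. The sources used here give no versions, annotation or strand setting, so overlapping and near-identical genes are uncertain. Counts were summed per group and scaled by TMM (edgeR 4.0.16, R 4.3.3, genes kept by filterByExpr with a minimum count of 10), 0.5 counts were added per group, and intervals are normal approximations on the log scale. Each value is limited by the counts of its scarcer fraction. The rule was tested on simulated data that held counting error only. Changes there were first centred on the genes simulated without change, so that test could not show errors of scaling. Alternatives used other scalings, minimums, added counts, a 2-fold rule, fewer columns, and tests over 12 columns in edgeR and DESeq2 1.42.0. Genes named by rule were Larp1 and Rpl22, the 15 largest changes and 10 farthest interval bounds per direction, and members of each list. Those were up to 4 called members per direction, or 3 members with the most input counts where none was called. Names beginning Gm or ending Rik were counted and not named by this rule. Other list members given with values, such as Hk1, Ldha, Tubb3, Gap43, Sprr1a, Rpl3, Lsm1 and Rheb, fell outside the rule. They were not in the checks of named genes. The members, lists and class limit were chosen with earlier results of these data known. Symbols matched 2252 of 2253 genes and RefSeq starts 1827.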

Additional observations from a re-analysis of the deposited data

Results flagged for a closer look

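In 2 genes the IP and the input changed in opposite directions, each with its interval wholly past 1.5-fold, so that both fractions added to the change of the ratio; the difference between the fractions was not tested. Nudt5, a nucleotide sugar hydrolase, had IP counts of 836, 800 and 812 against 547, 510 and 499 and input counts of 1401, 1354 and 1185 against 2396, 2180 and 2496. Its IP change was -0.81, its input change 0.65 and the change of its ratio -1.45 (-1.56 to -1.34). Gm3839, annotated in RefSeq as a pseudogene and named here after its values were seen, had the largest higher value, 3.21 (2.69 to 3.73). Its IP counts were 25, 12 and 8 against 91, 22 and 30 and its input counts 244, 298 and 291 against 67, 87 and 139, and in both genes columns of 1 group differed beyond counting error. Reads of a pseudogene and of its parent gene may not be separable in such counts.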

How the results depend on the processing

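Numbers below give genes called higher and lower, followed after a slash by those outside the low-ratio class, where the reported counts were 61 and 371 / 57 and 39. Total counts gave 244 and 117 / 238 and 11, DESeq2 size factors 24 and 478 / 21 and 65, and TMM referenced to a control IP column 30 and 464 / 26 and 61. Centring on genes outside the low-ratio class, an alternative chosen after seeing the data, gave 28 and 473 / 24 and 63. With no count minimum beyond filterByExpr there were 105 and 423 / 98 and 61, and beyond 2-fold 11 and 78 / 8 and 10. Without low-ratio genes, 57 and 39 were called. The edgeR test over 12 columns gave 283 and 593 / 277 and 149, and DESeq2 137 and 753 / 134 and 269. Leaving out columns gave 24 to 72 higher and 320 to 444 lower, and outside the class 20 to 68 and 28 to 57. Of the single columns, each of the 6 input columns moved the higher count by more than 1.5 times (34, 28 and 27 without control input 1, 2 and 3; 30, 31 and 24 without shLarp1 input 1, 2 and 3), and no IP column did. Upper-quartile factors, median centring, doubled minimums, other added counts and the removal of genes whose columns differ kept both counts within 1.5 times. The cause of the shifts between scalings was not tested.

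With the replicate number as a replicate block, edgeR called 280 and 590 / 274 and 147. Same-numbered columns did not deviate together (5 of 18 correlations above 0.1, from -0.17 to 0.23), so the numbers were not taken to pair samples.

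The difference between TOP-like start medians, 0.07 in the report's definition, was 0.17 where the first base had to be the C and -0.00598 without low-ratio genes. Relative to the median of all genes, list medians turned positive without low-ratio genes for decay factors (0.69, where Lsm1 alone was left), cholesterol synthesis (0.92) and fibroblast markers (0.12). Among the 135 genes named by rule and checked, no called gene changed direction when columns were left out. A scaling shifts every change of the ratio by the same amount. The shifts here were too small to turn a gene past 1.5-fold, so the scalings could not test direction. Ndufa4, not called in the main setting, stood at -0.16 and was called lower in DESeq2. Counts limit the values: genes with 50 to 52 input counts had 2 calls among 50.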
